A study of Mus musculus with 12 samples.

Results

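The genes described here write or erase methylation on lysine 27 of histone H3 (H3K27). They are the methyltransferases Ezh1 and Ezh2, the core subunits Eed, Suz12, Rbbp4 and Rbbp7, the accessory subunits Jarid2 and Phf19, and the demethylases Kdm6a and Kdm6b. They were chosen by name, and their probes were found through the RefSeq accession each probe carries on the array. This gave 14 probes for 10 genes, out of 24000 probes and 12300 named genes that were bright enough to test, and all 14 probes and all 10 genes passed that filter. Rbbp4 had 3 probes, Suz12 and Jarid2 had 2 each, and the other genes had 1 each.

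The cells were C3H/10T1/2, a mouse embryonic fibroblast line that MyoD can turn into muscle. A stable line carried a short hairpin against Six4 (shSix4) and its control line carried the shLuc hairpin. Both lines received retrovirus, either the empty pBABE vector or pBABE with MyoD carrying Flag and myc tags, so hairpin and virus sequences were present in the controls too. After 24 h the cells were moved into differentiation medium with 2% horse serum for a further 24 h. Cy3-labelled RNA from 4 groups (shLuc with empty vector, shLuc with MyoD, shSix4 with empty vector, shSix4 with MyoD) was hybridised to 3 one-colour arrays each, 12 in all. The labels describe each hairpin line as stable, name no clone, and do not say whether replicates came from separate cultures. The p-values therefore measure only how these samples spread, and that spread may be technical.

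Polycomb repressive complex 2 (PRC2) adds methyl groups to H3K27 through Ezh2 or its paralogue Ezh1, held by the scaffold Suz12 and by Eed, which binds the finished mark. Ezh2 is the form typical of dividing cells, and Ezh1 is the form that persists in cells that have stopped dividing, differentiated muscle among them. Kdm6a (also called Utx) and Kdm6b (also called Jmjd3) remove the mark, and loss of H3K27 trimethylation accompanies the activation of muscle genes. The arrays measured transcripts, and neither proteins nor the methylation mark.

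An array had 22318 to 27448 of its 41174 probes well above background, and no spot was saturated. Levels are given as log2 of the processed Cy3 signal less the array's 75th percentile, so that 0 is the 75th percentile of all probes on that array. A probe's brightness depends on its sequence, so levels are compared between arrays for 1 probe and not between genes. Replicate 1 of every group lay on slide 1, replicate 2 on slide 2 and replicate 3 on slide 3, and slide 1 was scanned on another day than slides 2 and 3. Each group also kept the same position on every slide, so group and position cannot be told apart. Slide 1 stood apart from the others: 6961 of 12300 genes (56.6%) differed by replicate number at an adjusted p under 0.05 (limma, Benjamini-Hochberg), while 8 genes (0.065%) differed between replicates 3 and 2. All 12 muscle markers rose with MyoD in the average over both lines. Of these, Myh3, Myl1, Myog, Ckm, Chrna1 and Chrng were above background on at most 1 array of each group with empty vector. They were above it on all 3 arrays of each group with MyoD. They passed the filter only through the MyoD groups, so their rise is not independent of it. The 12 markers were not equal in the lines with MyoD: the median difference of shSix4 from shLuc cells was -1.41, beside 0.02 over all genes. In that comparison 1 of the 12 was lower and 0 higher, where 0.309% of all genes passed. With the block described below 6 were lower, where 4.33% of all genes passed. All 12 fibroblast markers were above background on all arrays, and with MyoD 1 of the 12 fell and 0 rose (4 fell with the block described below). Of 6 epithelial markers, Cdh1, Krt5 and Krt14 were above background on all arrays and Epcam on none. Krt8, counted over its 2 probes, was above it on 5 of 6 arrays with empty vector and 4 of 6 with MyoD. Krt18 was above it on 0 of 6 and 4 of 6. Of the 5 tested, Krt18 rose with MyoD, and with the block Krt18 was higher and Cdh1 lower. Krt18 passed the filter only through shSix4 with MyoD (3 arrays, beside 1 of shLuc with MyoD), so its rise is not independent of the filter. Of the leukocyte and endothelial markers, Ptprc, Pecam1 and Kdr were above background on no array, Adgre1 on 1 array with empty vector and Cdh5 on 1 array with MyoD. The Six4 probe stood at -2.82 to -1.58 in shLuc and -4.03 to -2.76 in shSix4 cells with empty vector, and at -1.58 to -0.78 and -2.97 to -1.47 with MyoD, and the groups overlapped in both. The difference between the lines was -1.18 with MyoD and -0.92 with empty vector, neither past the threshold without the replicate number in the model (adjusted p 0.552 and 0.999), and the first passed with it (adjusted p 0.0385). The Myod1 probe stood at -0.11 to 1.31 in shLuc and at -2.11 to -0.15 in shSix4 cells with MyoD. It was higher with MyoD by 4.04 in shLuc cells (limma adjusted p 0.0310) and by 2.12 in shSix4 cells (0.490). Its replicate 3 value with empty vector was missing in each line. With MyoD the lines differed by -1.46 (limma adjusted p 0.845, 0.143 with the block). In these samples of RNA, fewer cells of a type and less RNA per cell cannot be told apart.

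Promoter windows of 9 of the 10 genes were found in RefSeq (mouse build GRCm38.p6, 250 bases before to 50 after the start of transcription). Jarid2 has 2 windows. They were searched on both strands for the E-boxes CAGCTG and CAGGTG, which MyoD-family factors bind, the E2F motif TTNGCGC, the cell cycle homology region TTTGAA and the Six-family MEF3 motif TCAGGTT. A stretch of 150 bases that ends 15 bases after the start is shown for 4 of the 9 genes, with matches to these motifs in capitals.
Ezh1, chr11:101226449-101226598, minus strand: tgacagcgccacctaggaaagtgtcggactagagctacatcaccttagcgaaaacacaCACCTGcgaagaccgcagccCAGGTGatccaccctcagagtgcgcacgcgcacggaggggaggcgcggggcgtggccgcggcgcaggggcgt
Ezh2, chr6:47595016-47595165, minus strand: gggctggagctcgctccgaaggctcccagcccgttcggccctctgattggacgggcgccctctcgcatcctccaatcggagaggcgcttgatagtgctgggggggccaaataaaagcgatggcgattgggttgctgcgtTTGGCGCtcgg
Rbbp4, chr4:129335356-129335505, minus strand: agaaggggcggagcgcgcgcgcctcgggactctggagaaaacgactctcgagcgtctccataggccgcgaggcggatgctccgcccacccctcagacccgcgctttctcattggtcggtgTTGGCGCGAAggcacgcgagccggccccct
Phf19, chr2:34913962-34914111, minus strand: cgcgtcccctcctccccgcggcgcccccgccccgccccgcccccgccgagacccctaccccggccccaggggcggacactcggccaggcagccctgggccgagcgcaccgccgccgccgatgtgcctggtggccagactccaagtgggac

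The E-box CAGGTG was found in 1 of the 10 windows, that of Ezh1, which holds it 2 times, and 20.2% of 32851 mouse promoter windows of this length hold it. The E2F motif was found in the windows of Ezh2 and Rbbp4, against 6.36% of all windows and 11 of 31 windows of listed cell cycle genes. The 2 E2F matches of Rbbp4 overlap, on opposite strands. The E-box CAGCTG was found in a Jarid2 window and in that of Rbbp7 (16.3% of all windows), and TTTGAA in those of Eed and Suz12 (17.9%). No window of the 10 held TCAGGTT, which 4.07% of all windows hold. The windows of Phf19 and of Kdm6a, the latter not shown, held no match to any of these motifs. A match describes the letters of a window and is not evidence of binding.

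**Figure D1:**
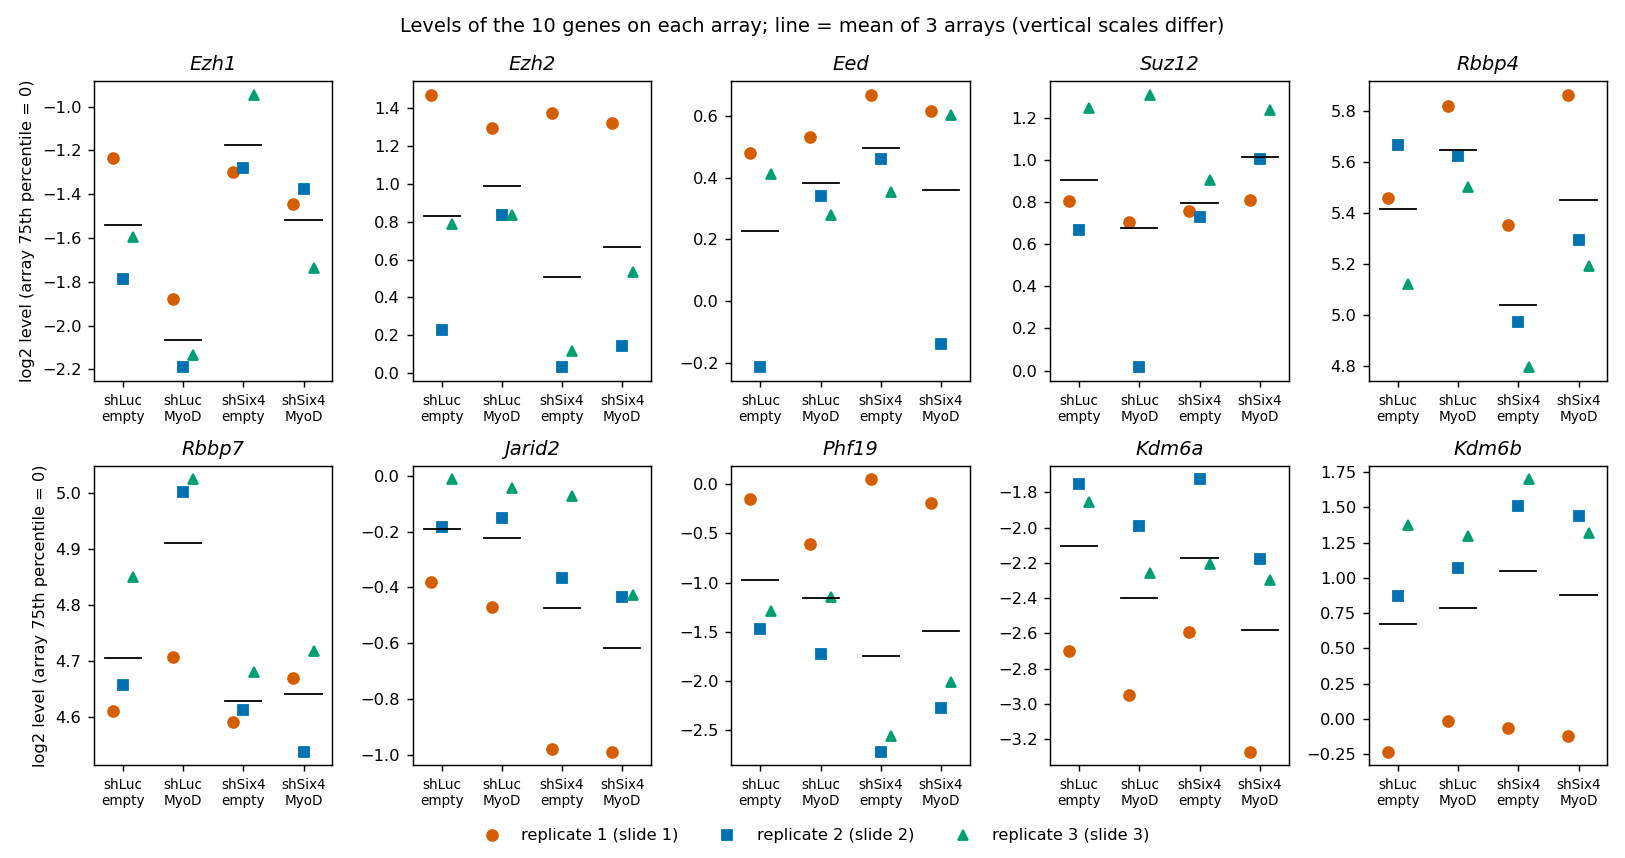
Levels of the 10 genes (vertical axis, log2 signal less the array's 75th percentile, with a scale of its own in each panel) on the 12 arrays, by group (horizontal axis). Symbols mark the replicate number, which is also the slide, and lines mark the mean of 3 arrays; the replicate 1 points of Ezh2 and Phf19 lie above, and those of Kdm6a and Kdm6b below, the other points of every group.

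The first question was whether MyoD moved any of the 10 transcripts. Without the replicate number in the model, 0 of 10 passed an adjusted p of 0.05 in shLuc cells, where 6.13% of all tested genes passed, 0 of 10 in shSix4 cells (3.02% of all genes), and 0 of 10 in the average over both lines (9.6%). At an unadjusted p under 0.05 the limma counts were 1, 0 and 1 of 10, against 18.5%, 9.53% and 22.9% of all genes. Same-numbered arrays deviated together from their group means, so the replicate number was also fitted as a block. With the block, 3 of 10 passed in the average over both lines (1 higher, 2 lower), against 31.7% of all genes (12.9% higher, 18.8% lower). The members' share was therefore near that of all genes. These 3 were Ezh1, Kdm6a and Rbbp4, and 0 of 10 passed with the block within either line alone, where 23.7% of all genes passed in shLuc cells and 7.95% in shSix4 cells (2 of 10 in each line at an unadjusted p under 0.05, against 38.2% and 23% of all genes). The median change of the 10 genes was 0.04 in shLuc and -0.06 in shSix4 cells, beside -0.12 and -0.05 over all genes. Whether the lines responded differently to MyoD was tested as an interaction, which passed for 0 of 10 genes, as for 0% of all genes, with or without the block. At an unadjusted p under 0.05 it passed for 0 of 10 in both limma fits, against 2.07% of all genes without the block and 6.07% with it. The Myod1 signal itself was higher with MyoD by 4.04 in shLuc and by 2.12 in shSix4 cells. The part of this in comparisons between the lines was not tested.

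**Figure D2:**
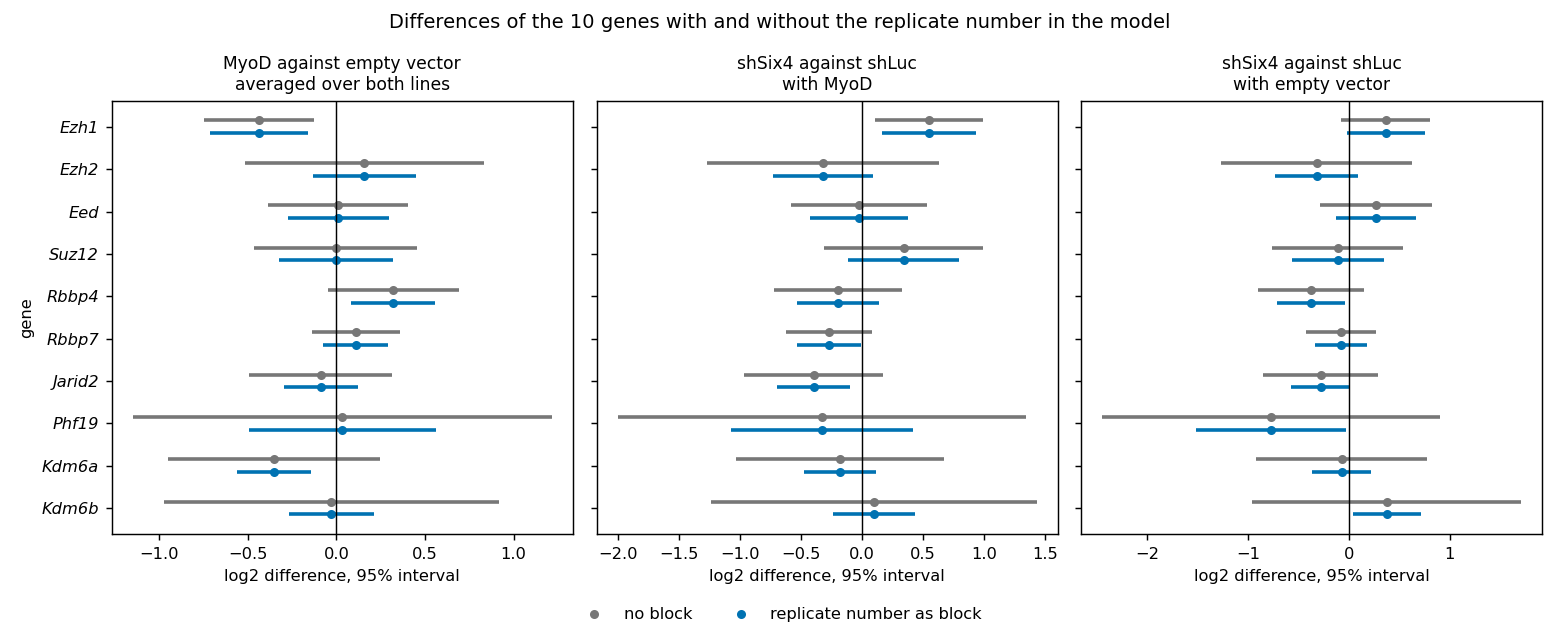
Log2 differences of the 10 genes (points) with 95% intervals (lines) in 3 comparisons, without a block (grey) and with the replicate number as a block (blue), from limma fits over 12 arrays. The block narrows the intervals most for Kdm6b, Kdm6a, Ezh2 and Phf19; in the left panel the blocked intervals of Ezh1, Kdm6a and Rbbp4 leave 0.

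Ezh1, the methyltransferase of non-dividing cells, was the member with the lowest adjusted p for MyoD without the block. In shLuc cells its levels were -1.23, -1.79 and -1.60 with empty vector and -1.88, -2.19 and -2.13 with MyoD (replicates 1, 2 and 3). All 3 MyoD arrays lay below all 3 arrays of the empty vector. In shSix4 cells the levels were -1.30, -1.28 and -0.95 with empty vector and -1.45, -1.38 and -1.74 with MyoD. These groups did not overlap either, and 14.4% and 6.87% of all genes lay wholly lower with MyoD in shLuc and in shSix4 cells. The change in shLuc cells was -0.53 ± 0.20 (SE), with a limma adjusted p of 0.179 without the block and 0.0525 with it. For shSix4 cells it was -0.34 ± 0.20 (adjusted p 0.738 and 0.272). Averaged over both lines it was -0.44, a 1.35-fold lower signal, with an adjusted p of 0.0843 (SE 0.14) without the block and 0.0233 (SE 0.12) with it. Ezh1 was lower with MyoD in 6 of 6 same-numbered pairs, as 20.9% of all genes were. The blocked call of Ezh1 held when 6 of the 12 arrays were left out in turn and ended when replicate 1 of shLuc with empty vector, replicates 2 or 3 of shLuc with MyoD, replicate 3 of shSix4 with empty vector, or replicates 1 or 3 of shSix4 with MyoD was left out (adjusted p between 0.0151 and 0.0657 over the 12).

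Ezh2, the methyltransferase typical of dividing cells, showed no such ordering. In shLuc cells it stood at 1.47, 0.23 and 0.79 with empty vector and at 1.29, 0.83 and 0.84 with MyoD. In shSix4 cells it stood at 1.37, 0.03 and 0.12 with empty vector and at 1.32, 0.15 and 0.54 with MyoD. The groups overlapped in both lines, and the highest arrays were the 4 of replicate 1. The change with MyoD was 0.16 ± 0.43 in each line (adjusted p 0.903 and 0.997), and the interval of the average, -0.51 to 0.83, allows a change in either direction. With the block that interval was -0.13 to 0.45.

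Among the core subunits, Eed, which binds trimethylated H3K27, was higher in 3 and lower in 3 of the 6 pairs, with an average change of 0.01 ± 0.18. Suz12, the scaffold of PRC2, changed by -0.23 ± 0.30 in the shLuc line and by 0.22 ± 0.30 in the shSix4 line, and the difference between these, 0.45 ± 0.42, did not pass (adjusted p 1.00). Its lowest array of the 12, at 0.02, was replicate 2 of shLuc with MyoD. Rbbp4 and Rbbp7 are histone-binding proteins that PRC2 shares with histone deacetylase and chromatin assembly complexes.

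Rbbp4 levels in shLuc cells were 5.46, 5.67 and 5.12 with empty vector and 5.82, 5.62 and 5.50 with MyoD. In shSix4 cells they were 5.35, 4.97 and 4.80 with empty vector and 5.86, 5.30 and 5.19 with MyoD. The groups overlapped in both lines, and 5 of 6 same-numbered pairs were higher with MyoD. The average change was 0.32, with an adjusted p of 0.292 (SE 0.17) without the block and 0.0450 (SE 0.11) with it. That blocked call ended when any of 10 of the 12 arrays was left out, and held only without replicate 2 of shLuc with empty vector or replicate 2 of shSix4 with MyoD (adjusted p between 0.00889 and 0.116). The other 2 Rbbp4 probes were also higher with MyoD on average: A_52_P424767 by 0.56 (adjusted p 0.0552 over 24000 probes, 0.00400 with the block) and A_52_P296810 by 0.40 (0.515 and 0.278). Rbbp7 changed by 0.21 ± 0.16 in the control line and by 0.01 ± 0.16 with the Six4 hairpin (adjusted p 0.556 and 0.999).

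Neither accessory subunit passed the test for MyoD. Jarid2, which helps bring PRC2 to its targets, changed by -0.09 ± 0.18 on average, and its second probe by -0.09 as well. Phf19, a Polycomb-like subunit, changed by -0.19 ± 0.76 in the control line and by 0.25 ± 0.76 with the Six4 hairpin. Within its groups Phf19 had an SD of 0.56 to 1.56 (n = 3). Its average change was 0.03, with an interval of -1.15 to 1.22 without the block and of -0.49 to 0.56 with it. Each interval allows a change in either direction.

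Of the demethylases, Kdm6a was lower with MyoD in 6 of 6 same-numbered pairs. In shLuc cells it stood at -2.70, -1.75 and -1.86 with empty vector and at -2.95, -1.99 and -2.26 with MyoD. In shSix4 cells it stood at -2.59, -1.73 and -2.21 with empty vector and at -3.27, -2.18 and -2.29 with MyoD. The groups overlapped in both lines, and replicate 1 was the lowest array of every group. The average change was -0.35, a 1.28-fold lower signal, with an adjusted p of 0.503 (SE 0.27) without the block and 0.0176 (SE 0.092) with it. Left out in turn, 11 of 12 arrays kept the blocked call, and without replicate 1 of shSix4 with empty vector the adjusted p was 0.050, just over the threshold. Kdm6b, which is often induced by stress and differentiation signals, changed by 0.11 ± 0.61 in the control line and by -0.17 ± 0.61 with the Six4 hairpin. With the block its average change was -0.03, with an interval of -0.26 to 0.21.

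The blocked calls of Ezh1, Kdm6a and Rbbp4 ended under other settings too. With normexp background correction the blocked adjusted p was 0.491 for Ezh1, 0.520 for Kdm6a and 0.281 for Rbbp4, and on slides 2 and 3 alone it was 0.0730, 0.148 and 0.203.

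The second question was whether the Six4 hairpin changed these transcripts. At an adjusted p of 0.05, 0 of 10 differed between shSix4 and shLuc cells with MyoD (0.309% of all genes passed) and 0 of 10 with empty vector (0.0569%). At an unadjusted p under 0.05 the limma counts were 1 and 0 of 10, against 7.72% and 4.45% of all genes. With the block the counts were again 0 of 10, against 4.33% and 0.634% of all genes, and 3 of 10 in each at an unadjusted p under 0.05, against 19.9% and 14.9%. The change nearest the threshold was that of Ezh1 with MyoD, where all 3 shSix4 arrays lay above all 3 shLuc arrays. Its difference was 0.55 ± 0.20 (adjusted p 0.445, 0.113 with the block), and 5.43% of all genes lay wholly higher in shSix4 cells in this comparison. Without MyoD the Ezh1 difference was 0.36 ± 0.20 and the groups overlapped. Under the alternative settings without the block, the Ezh1 difference ran from -0.04 to 0.66 with MyoD. With empty vector it ran from -0.15 to 0.58. In each comparison it kept its sign in 36 of 38 settings, those with the block included. Kdm6a, the demethylase, differed by -0.18 ± 0.39 with MyoD and by -0.07 ± 0.39 with empty vector.

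The largest hairpin difference was that of Phf19 with empty vector, -0.77 ± 0.76 (adjusted p 0.999, 0.319 with the block), and it was not alike on the slides. Phf19 stood at -0.15, -1.48 and -1.29 in the shLuc line, and at 0.05, -2.72 and -2.57 in the shSix4 line. The shSix4 array less the shLuc array was 0.20 on slide 1, -1.25 on slide 2 and -1.27 on slide 3. In a fit of slides 2 and 3 alone, chosen after these values were seen, Phf19 differed by -1.26 ± 0.23 (adjusted p 0.0396, 0.00975 with the block) and was the only one of the 10 past the threshold, where 2.22% of all genes passed and 1.98% were lower (3.64% and 3.11% with the block). In the blocked fit of all slides without replicate 1 of shSix4 with empty vector the Phf19 difference was -1.22 (adjusted p 0.0499). Both fits leave out the shSix4 array of slide 1, where the difference went the other way, and the first leaves 2 arrays per group. Their p-values are not independent of that choice. Cell cycle genes moved with Phf19 on slides 2 and 3: 21 of 35 listed genes were lower in shSix4 cells and 0 higher, with a median of -1.21 beside -0.05 over all genes. Their part in the Phf19 difference was not tested. With MyoD on the same slides the Phf19 difference was -0.71 ± 0.23 and did not pass (adjusted p 0.193, 0.0720 with the block). Ezh2 with empty vector differed by -0.43 ± 0.23 on those slides (adjusted p 0.527).

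More of the 10 genes passed by replicate number than by either treatment. By a test over the 3 numbers with the groups in the model, 7 of 10 passed an adjusted p of 0.05, where 56.6% of all genes passed. These were Kdm6b (0.000116), Kdm6a (0.000398), Ezh2 (0.00138), Phf19 (0.00145), Jarid2 (0.00617), Rbbp4 (0.0323) and Suz12 (0.0455). Ezh1, Eed and Rbbp7 did not pass (0.488, 0.0662 and 0.309). Replicate 2 differed from replicate 1 in 6 of 10 genes (51.1% of all genes), 3 higher (22.4%) and 3 lower (28.7%). Replicate 3 differed from replicate 1 in 6 of 10 (52.7%), again 3 higher (22.5%) and 3 lower (30.2%). Replicates 3 and 2 differed in 0 of 10 (limma, lowest adjusted p 0.166), where 0.065% of all genes passed. The 10 genes' shares were close to those of all genes, and nothing particular to them is read from these counts.

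Ezh2 and Phf19 were higher on slide 1 in all 4 groups, and Kdm6a, Kdm6b and Jarid2 were lower on slide 1 in all 4 groups. Against replicate 1, Ezh2 differed by -1.05 ± 0.16 in replicate 2 and by -0.79 ± 0.16 in replicate 3. Phf19 differed by -1.83 ± 0.29 and -1.53 ± 0.29, a 3.55-fold and a 2.89-fold difference in signal. Kdm6a was 0.97 ± 0.11 and 0.72 ± 0.11 higher. Kdm6b was 1.33 ± 0.13 and 1.53 ± 0.13 higher, with levels of -0.23, -0.01, -0.06 and -0.12 on slide 1 and from 0.87 to 1.70 on the other 8 arrays. Jarid2 was 0.42 ± 0.11 and 0.57 ± 0.11 higher, and its second probe 0.50 and 1.01 higher. The 2 Suz12 probes did not go the same way: against replicate 1, the brighter differed by -0.17 in replicate 2 and 0.41 in replicate 3, and the dimmer by -0.31 and -0.63. The Rbbp4 probe used differed by -0.23 and -0.47. Its other probes differed by -0.35 and -0.01 (A_52_P424767) and by -0.42 and 0.15 (A_52_P296810). Neither of these passed by replicate number (limma adjusted p over 24000 probes 0.0541 and 0.256). Eed passed between replicates 2 and 1 alone (-0.46 ± 0.15, adjusted p 0.0313). The calls of Ezh2, Phf19, Kdm6a, Kdm6b and Jarid2 held when each of the 12 arrays was left out in turn. That of Rbbp4 held without 5 of the 12, namely replicates 1 or 2 of shLuc with empty vector and replicate 2 of any other group, and ended without any of the rest (adjusted p between 0.00838 and 0.0970). That of Suz12 held without 4, namely replicate 2 of shLuc with MyoD, replicates 2 or 3 of shSix4 with empty vector and replicate 2 of shSix4 with MyoD, and ended without any of the rest (adjusted p between 0.0339 and 0.158). With normexp background correction 3 of the 10 passed (Ezh2, Kdm6a and Kdm6b), where 2382 of 12300 genes passed.

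As a share of each gene's variance over the 12 arrays, replicate number took 93.1% for Kdm6b, 79.2% for Kdm6a, 76.9% for Ezh2 and 75.6% for Phf19. The median over all genes was 44.1%, and the 4 groups took a median of 28.9%. Ezh1 was the reverse, with 5.06% for replicate number and 77.0% for group. Rbbp7 followed with 57.0% for group and 23.1% for replicate number. Slide, scan day and any difference between cultures run along with replicate number and cannot be told apart here.

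**Figure D3:**
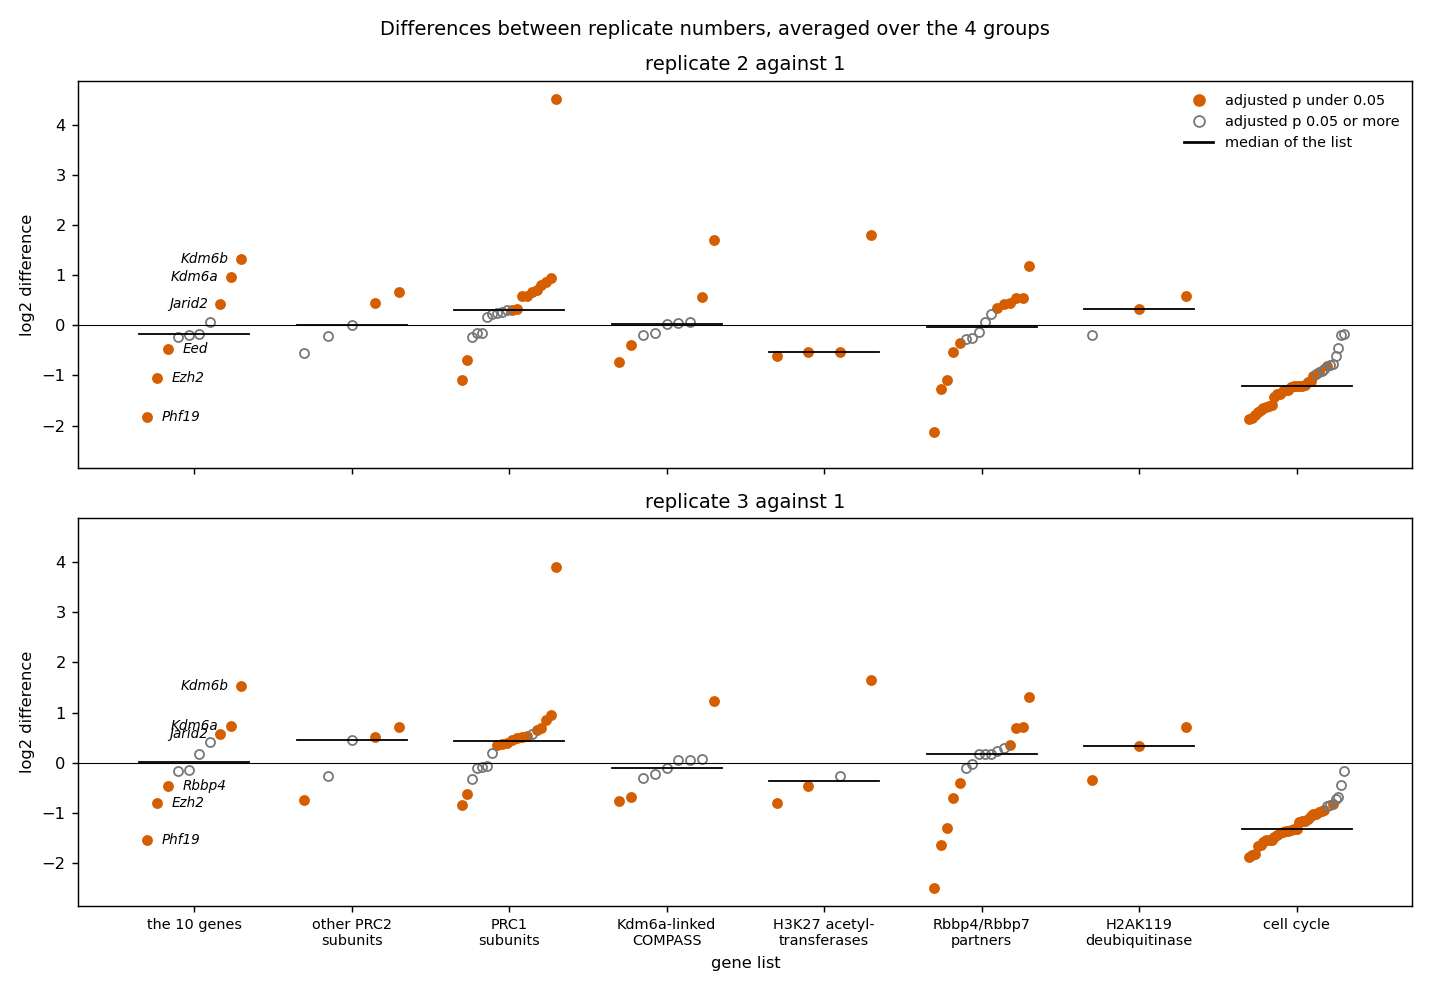
Log2 differences of replicate 2 (top) and replicate 3 (bottom) from replicate 1, averaged over the 4 groups, for the genes of 8 lists (horizontal axis). Filled points passed an adjusted p of 0.05 and lines mark the median of a list; the 10 genes spread to both sides, while all 35 cell cycle genes lie below 0.

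Genes of related complexes also lay on both sides. Polycomb repressive complex 1 (PRC1) binds trimethylated H3K27 and modifies histone H2A. Of its 20 tested subunits, 10 were higher and 2 lower in replicate 2 than in replicate 1, where 22.4% of all genes were higher and 28.7% lower. In replicate 3, 12 were higher and 2 lower than in replicate 1, where 22.5% of all genes were higher and 30.2% lower. L3mbtl2 was higher by 4.52 and 3.90, Pcgf1 by 0.95 and 0.96, and Pcgf5 differed by -1.09 and -0.85. Of 4 enzymes that acetylate H3K27 or neighbouring lysines, Ep300 was higher by 1.81 and 1.65, and its paralogue Crebbp differed by -0.62 and -0.81. Kmt2c, a histone H3 lysine 4 methyltransferase whose complex holds Kdm6a, was higher by 1.71 and 1.23, and was the largest change among 9 tested genes of those complexes. Of 16 tested partners of Rbbp4 and Rbbp7, 6 were higher and 5 lower in replicate 2. Among them Chaf1a and Chaf1b, the large subunits of chromatin assembly factor 1, differed by -2.13 and -1.26, and Chd4, a remodeller, was higher by 1.18. Of 5 other tested PRC2 subunits, Phf1 was higher by 0.67 and Epop by 0.44 in replicate 2.

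The cell cycle list was the most one-sided of these: 26 of 35 tested genes were lower in replicate 2 than in replicate 1 and 29 of 35 in replicate 3, with 0 higher. Of all genes, 28.7% and 30.2% were lower. The medians of the list were -1.22 and -1.31, beside -0.08 over all genes in both. The mean level of 34 of them over arrays of the shLuc line was 2.92, 2.18 and 1.95 without MyoD and 2.81, 2.57 and 2.51 with it. In shSix4 cells it was 2.91, 0.75 and 0.80 with empty vector and 3.04, 1.49 and 1.58 with MyoD. The 4 arrays of slide 1 were the highest, and the shSix4 arrays of slides 2 and 3 the lowest. Ezh2 and Phf19 were highest and Kdm6b lowest where the list was highest. Over the 12 arrays, which share slides and treatments, Pearson's r between levels was 0.940 for Ezh2 and Phf19, -0.874 for Ezh2 and Kdm6b and -0.914 for Phf19 and Kdm6b. The part of the cell cycle genes in the differences of Ezh2, Phf19 and Kdm6b was not tested.

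**Figure D4:**
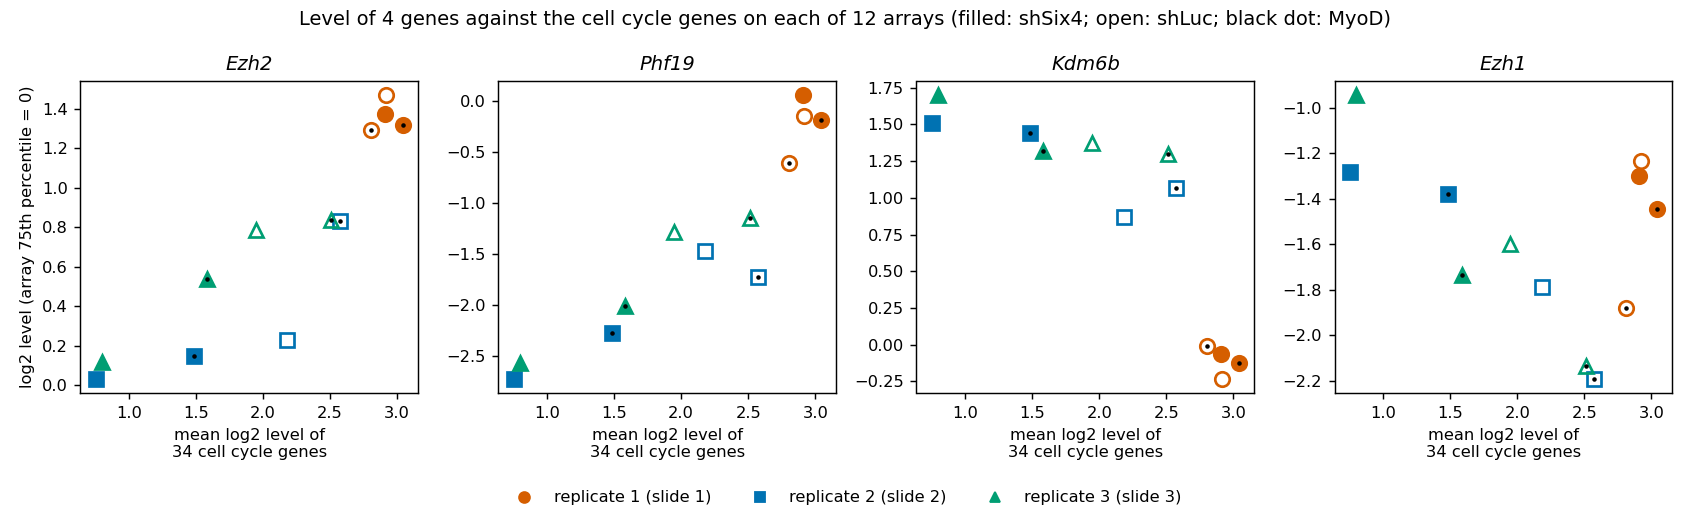
Levels of Ezh2, Phf19, Kdm6b and Ezh1 (vertical axes, log2 signal less the array's 75th percentile) against the mean log2 level of 34 cell cycle genes measured on all 12 arrays (horizontal axis). Each point is 1 array, with symbols for the replicate number; the 4 slide 1 arrays sit at 2.81 to 3.04 on the horizontal axis, with Ezh2 and Phf19 at their highest and Kdm6b at its lowest.

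With MyoD the same lists were counted in the average over both lines. There 9.6% of all genes passed without the block, and with it 12.9% were higher and 18.8% lower. The PRC1 list is given only in part: with the block, Pcgf5, Pcgf6 and Yaf2 were higher and Pcgf2 and Cbx6 lower, and these 5 did not pass without it. Of the Rbbp4 and Rbbp7 partners, Sap30, a subunit of the Sin3 deacetylase complex, rose by 0.80 ± 0.19 (adjusted p 0.0217), and with the block 2 of 16 were higher and 2 lower. Of the 5 other PRC2 subunits 0 passed without the block. The 2 with the smallest p were Phf1 (-0.45, adjusted p 0.235, 0.00947 with the block) and Epop (0.45, adjusted p 0.256, 0.0203 with the block), accessory subunits like Phf19 and Jarid2. In the Kdm6a-linked complexes 0 of 9 passed; the smallest p were those of Paxip1 (0.19, adjusted p 0.455, 0.219 with the block) and Ncoa6 (-0.26, adjusted p 0.471, 0.0431 with the block). The 4 acetyltransferases gave 0 calls with or without the block; the smallest p were those of Kat2b (-0.23, adjusted p 0.559) and Kat2a (0.12, adjusted p 0.751). Of the 3 genes of the H2A deubiquitinase that opposes PRC1, 0 passed; Asxl2 had the smallest p (0.41, adjusted p 0.307, 0.0132 with the block) and Bap1 the next (0.16, adjusted p 0.536). Of 35 cell cycle genes, E2f2 rose by 4.17 ± 0.43 (adjusted p 6.5e-05) and E2f8 by 0.68 ± 0.18 (adjusted p 0.0348). With the block 5 of 35 were higher and 0 lower, where 12.9% of all genes were higher and 18.8% lower. On slides 2 and 3 alone, a fit added after the data were seen, their median change with MyoD was 0.46, beside -0.09 over all genes. With the hairpin, 0 genes of these lists passed in the fit of all 12 arrays without the block, either with MyoD or with empty vector. On slides 2 and 3 alone, 16 of 35 cell cycle genes were lower in shSix4 cells with MyoD (20 with the block) and 0 higher, beside the 21 of 35 lower with empty vector.

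Paralogues were also compared within each array, where a shift shared by all probes of an array cancels. For Ezh2 less Ezh1 this gave 2.70, 2.02 and 2.38 in the shLuc line without MyoD and 3.17, 3.02 and 2.97 with it. In shSix4 cells it was 2.67, 1.31 and 1.06 with empty vector and 2.76, 1.52 and 2.27 with MyoD. The size of such a difference reflects both probes, and only its change between arrays is read. It was higher with MyoD by 0.59 (exact permutation test of 400 relabellings within hairpin lines, two-sided p = 0.085, adjusted over 6 tests 0.255). Between shSix4 and shLuc cells it differed by -0.78 (exact permutation p = 0.04, adjusted 0.24). The smallest p this design allows with all 12 arrays is 0.005. With an array left out in turn, 1 of 12 such tests of the hairpin difference passed (adjusted exact permutation p between 0.03 and 0.45). The 1 that passed was without replicate 1 of shSix4 with empty vector, at -1.02. With relabelling only within same-numbered pairs, where 64 relabellings allow no p under 0.0312, the Ezh2 to Ezh1 difference was higher with MyoD in 6 of 6 pairs (by 0.09 to 1.21) and lower in shSix4 cells in 6 of 6 (differences of -1.50 to -0.03). Both had an exact permutation p of 0.0312, which is 0.0625 adjusted over the 6 tests, and did not pass. A test at this smallest p passes only if several of the 6 tests reach it. The paired tests therefore cannot decide for 1 pair of genes taken alone. With normexp background correction the hairpin difference was -0.17. The Kdm6b to Kdm6a difference was higher with MyoD by 0.32 (adjusted 0.308) and in shSix4 cells by 0.36 (adjusted 0.30; higher in 6 of 6 pairs, paired exact permutation p 0.0312, adjusted 0.0625), and the Rbbp7 to Rbbp4 difference changed by -0.21 and 0.11 (adjusted 0.39 and 0.565).

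**Figure D5:**
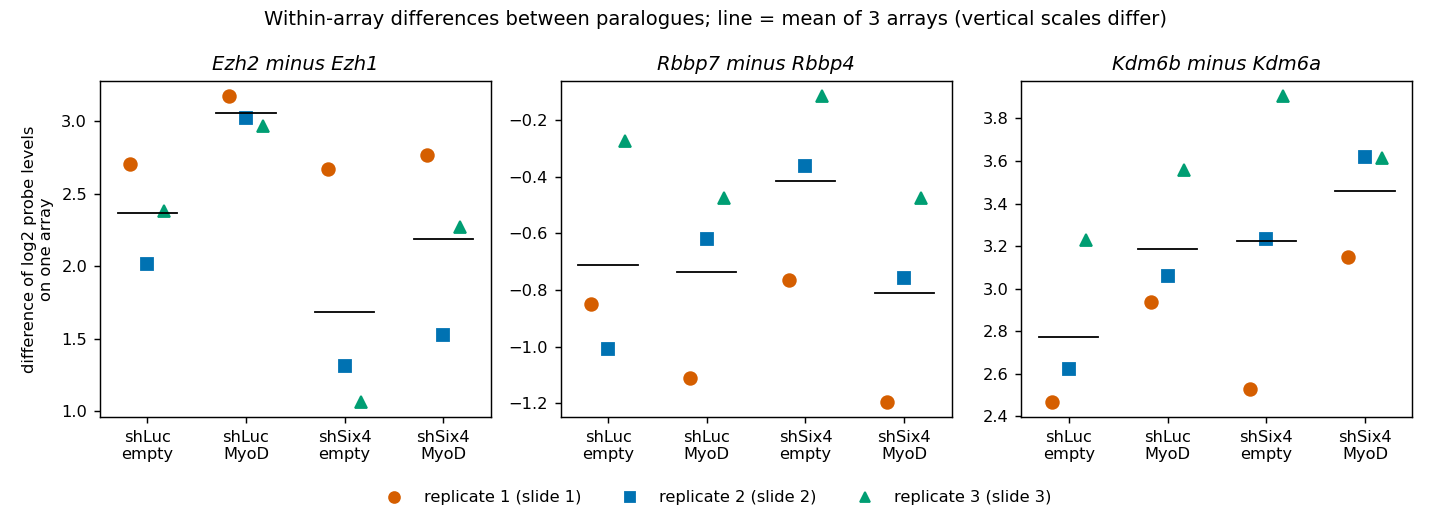
Within-array differences of log2 probe levels (vertical axes) between Ezh2 and Ezh1, Rbbp7 and Rbbp4, and Kdm6b and Kdm6a, by group (horizontal axis). Symbols mark replicate numbers and lines the mean of 3 arrays; for Ezh2 and Ezh1 the 3 arrays of shLuc with MyoD lie highest, and the replicate 2 and 3 arrays of shSix4 with empty vector lie lowest, at 1.31 and 1.06.

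The genes whose levels were most like those of each enzyme over the 12 arrays were listed by Pearson's r. For Ezh2 they were Top2a (0.977), which untangles DNA in dividing cells and is on the cell cycle list, Hat1 (0.976), a histone acetyltransferase, and Orc1 (0.973), a subunit of the origin recognition complex. For Ezh1 they were Fbxo7 (0.941), Nudt16 (0.939) and Mapkbp1 (0.926). For Kdm6a they were Uvssa (0.974), Arhgap5 (0.968) and Tead3 (0.968), and for Kdm6b Zmym2 (0.983), Zfp866 (0.978) and Dgcr8 (0.974). With the mean of each replicate number removed, Ezh2 was most like Ncaph (0.988), a condensin subunit, Top2a (0.971) and Mad2l1 (0.969), and Ezh1 most like Mfsd3 (0.974), Nudt16 (0.969) and Git2 (0.965). Kdm6a was then most like Mxd1 (0.938), Hdgfl3 (0.927) and Gprin3 (0.923), and Kdm6b was close to Mon2 (0.932) and Rab10 (0.886), in each case other genes than those above. These are among the highest of 12144 genes for each enzyme, over arrays that share slides and treatments, and they are given as descriptions.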

How the data were processed

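Each deposited scanner file holds the Cy3 intensity of the spots of 1 array on a linear scale; per the file headers the authors' processed signal is background-corrected within the array and not normalized between arrays. The file headers name Feature Extraction 11.5.1.1, where the submitters' processing notes name 10.5.1.1. A second table the authors deposited holds normalized log2 values; how they were normalized is not stated in the labels. Its columns followed log2 of their own arrays' processed signal (r 0.9993 to 0.9998) with medians from 8.66 to 8.72, so direction and scale are settled. It served as an alternative and holds Jarid2 and Kdm6a among the 10 genes, Jarid2 by its dimmer probe alone.

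Levels are log2 processed signals less the 75th percentile of their array; control and outlier spots were left out and spots of a probe were averaged. Probes were kept where some group had all 3 arrays well above background. Probes were named by RefSeq accession (24820 of 25268 with an mRNA accession), and a gene was read from its brightest kept probe. Groups came from the sample titles; a description field that names another cell line was not used. limma 3.58.1 (R 4.3.3) was fitted over 12 arrays and 12300 genes with Benjamini-Hochberg adjustment and a threshold of 0.05, without a block, and tested on simulated data. Errors after ± are standard errors unless called SD, and intervals are 95%. Same-numbered arrays deviated together from their group means (r 0.278 to 0.819 in all 18 pairs, over 12144 genes), the pairing coming from the numbers in the titles, which are also the slides; the fit with the number as a block is given where it changes a call. The scanner files used here have no mean signal, so normexp (offset 50) ran on the median signals.

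The 10 genes, the 11 other lists, the motifs and the tests were chosen with earlier results of these data known. The text names all 10 genes, list genes past the threshold, apart from what is left out as stated below (up to 4 a list by size, or the 2 with the smallest p for MyoD in a list without a call), and the 3 genes most like each enzyme. L3mbtl2, Ep300, Crebbp, Kmt2c and the other genes named by replicate number were picked by size after their values were seen. Alternatives were other background corrections, scalings, filters and probe rules, fits of fewer arrays, the replicate block, and the authors' table. The number of arrays limits the precision. A result of the PRC1 list and one of the likeness lists are not reported here.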

Additional observations from a re-analysis of the deposited data

How the results depend on the processing

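Over all alternatives, 2400 of 2474 values of single genes kept their side of the threshold and 0 reversed past it; 42 passed under the alternative alone and 32 in the reported fit alone. With the replicate block, the genes of the 10 called for MyoD averaged over both lines went from 0 to 3, to 3 with quantile normalization as well and 3 with the mean of the kept probes, and to between 1 and 3 when an array was also left out. For MyoD in shLuc cells the block gave 1 with quantile normalization (Ezh1, -0.56, adjusted p 0.0401) and 1 with the mean of the kept probes, and 0 to 1 with an array left out; for MyoD in shSix4 cells it gave 1 with quantile normalization (Rbbp4, 0.42, adjusted p 0.0491). For the hairpin with empty vector, slides 2 and 3 alone gave 1 with or without the block, and the block with an array left out 0 to 1. By replicate number, normexp gave 3, slides 2 and 3 alone gave 0, and leaving out an array gave 5 to 8. The authors' deposited table, of 2638 genes, held 2 of the 10. No call is read from it, because the share of all its genes that passed is not given here. It reads Jarid2 from its dimmer probe and not from the probe used above. Counts over all genes for part of these settings follow, and the counts of the 10 are not read apart from them. The Ezh2 to Ezh1 difference between the hairpin lines ran from -1.02 to -0.61 when an array was left out.

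Counts over all genes (MyoD in shLuc, MyoD in shSix4, hairpin with MyoD, hairpin with empty vector, MyoD averaged) were 754, 371, 38, 7 and 1181. They became 2915, 978, 533, 78 and 3898 with the block, 86, 55, 0, 0 and 185 with normexp, 139, 72, 0, 0 and 343 with both, and 439, 154, 6, 4 and 840 with probes above background on all arrays. Slides 2 and 3 alone gave 268 and 273 for the hairpin with MyoD and with empty vector. The hairpin counts were also 20 and 3 with median scaling, 2 and 2 without a filter, and 0 and 0 with only the 2 groups compared, while quantile normalization gave 4 with empty vector. Leaving out an array gave 493 to 858, 272 to 377, 1 to 49, 1 to 8 and 872 to 1227. By replicate number 6961 genes became 2382 with normexp and 1 on slides 2 and 3. The causes were not tested.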
